A study of Mus musculus with 230 samples.

Results

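Single cells of the postnatal mouse brain were divided by their level of Eomes, the T-box transcription factor that marks intermediate progenitors of glutamatergic neurons, and all other genes were compared between the divisions. Cells with Eomes of at least 5 RPKM (reads for each kilobase of a gene per M, or mega, reads of the library) are called Eomes-high here, and cells under 1 RPKM are called Eomes-none. The cells were chosen by this measured value alone. The 95 cells compared were 65 Eomes-high and 30 Eomes-none cells, out of 109 P2 cells and 230 cells in the whole series. A further 13 P2 cells, with Eomes from 1 to under 5 RPKM, stayed out of the comparison and are described beside it. 1 P2 column was listed at 0 for every gene and was left out.

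All cells came from C57BL/6 mice of the genotype Neurog2CreERT x Ai14+/+, in which a tamoxifen-inducible recombinase under regulatory sequences of the proneural gene Neurog2 switches on the red reporter tdTomato. P2 cells were taken at postnatal day 2 from the dorsal subventricular zone, 12 h after tamoxifen, and were sorted for the reporter. E15 cells, from the pallium at embryonic day 15, were made the same way and are used here only for values set beside those of P2. Both Eomes groups therefore share the genotype, the tamoxifen and the sort on the reporter, and were told apart by the level of Eomes alone. The reporter marks cells in which the Neurog2 driver was active at tamoxifen and the cells they gave rise to, not cells that still hold Neurog2 transcript.

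In the developing cortex, radial glia that express Pax6 and Sox2 give rise to intermediate progenitors, which switch on Neurog2 and then Eomes, divide, and hand over to young neurons that express Neurod1, Neurod6 and Tbr1. After birth the dorsal subventricular zone still holds progenitors of this kind beside progenitors of olfactory bulb neurons. Eomes protein binds T-box sites in DNA, and Neurog2 and the Neurod factors bind E-boxes, as basic helix-loop-helix proteins do. Since the level of Eomes chose the cells, its own difference between the groups is not a result.

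The promoters below are those of Eomes itself, of Itm2b and Zbtb38, which were higher by at least 1 in Eomes-high cells in both plates (log2 scale), and of the marker Sema3c, whose differences were below 0 in both. They are the 250 bases before the start of each gene in RefSeq (GRCm38.p6), 5′ to 3′ on the strand of the gene. Capitals mark an E-box CAGATG. For Zbtb38, which has 3 starts, the first is shown. The fifth sequence is the mature miRNA of Mir5128, a gene with lower values in Eomes-high cells, with its seed in capitals.
Eomes promoter, chr9:118477939-118478188, plus strand: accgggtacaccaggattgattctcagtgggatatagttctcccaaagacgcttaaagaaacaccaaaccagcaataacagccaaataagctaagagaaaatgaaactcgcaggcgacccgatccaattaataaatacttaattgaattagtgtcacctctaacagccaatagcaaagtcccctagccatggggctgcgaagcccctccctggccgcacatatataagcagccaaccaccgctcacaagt
Itm2b promoter, chr14:73385290-73385539, minus strand: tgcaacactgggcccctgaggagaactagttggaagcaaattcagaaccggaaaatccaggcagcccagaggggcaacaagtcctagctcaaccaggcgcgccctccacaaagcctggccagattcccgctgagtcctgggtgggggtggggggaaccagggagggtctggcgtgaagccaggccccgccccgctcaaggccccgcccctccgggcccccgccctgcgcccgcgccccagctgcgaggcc
Zbtb38 promoter, chr9:96731676-96731925, minus strand: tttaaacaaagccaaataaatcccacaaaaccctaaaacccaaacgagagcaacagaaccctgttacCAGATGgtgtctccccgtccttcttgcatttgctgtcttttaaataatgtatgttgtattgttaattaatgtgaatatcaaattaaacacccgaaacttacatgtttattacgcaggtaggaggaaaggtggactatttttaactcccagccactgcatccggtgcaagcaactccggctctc
Sema3c promoter, chr5:17574566-17574815, plus strand: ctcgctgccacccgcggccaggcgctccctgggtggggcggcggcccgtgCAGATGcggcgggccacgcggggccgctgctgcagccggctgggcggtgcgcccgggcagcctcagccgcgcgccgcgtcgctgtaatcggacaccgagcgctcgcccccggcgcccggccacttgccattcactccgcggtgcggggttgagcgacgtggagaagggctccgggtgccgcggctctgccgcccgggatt
mmu-miR-5128, chr2:37688212-37688234, minus strand: cAAUUGGGgcuggcgagauggcu

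The E-box of Sema3c begins 200 bases before the start, and that of Zbtb38 begins 183 bases before the start shown. A second Zbtb38 start had the same motif on the opposite strand, 189 bases before it. Both strands were searched for the T-box core TCACACC and for CAGATG, which share no letters in overlap. In the same window TCACACC was found for 3.84% of 27025 genes and CAGATG for 16.3%. Of the 15 genes with the largest positive differences, 11 had a promoter in the table, and 0 of these 11 held TCACACC and 1 held CAGATG (9.09%). The letters of TCACACC were also not in the 250 bases shown for Eomes or Sema3c. These are matches of letters in a window and not bound sites.

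Eomes had a lowest value of 5.08, a median of 58.1 and a highest value of 260 RPKM in the 65 Eomes-high cells. In the 30 Eomes-none cells it was listed at 0 in 23, and the highest value was 0.81 RPKM. Neither limit lay in a wide gap. At 1 RPKM, there were cells with 0.327, 0.417 and 0.81 RPKM just under it and 1.18, 1.54 and 1.64 just above. At 5 RPKM, there were cells with 3.78, 3.80 and 4.24 RPKM just under it and 5.08, 5.25 and 5.79 just above. The cell titles carry the word plaque with the number 1 or 2. These sets are called plates 1 and 2 here, and no label says what they mark. Each held both groups, with 32 Eomes-high and 14 Eomes-none cells in plate 1 and 33 and 16 in plate 2. Median Eomes in the Eomes-high cells was 51.5 RPKM in plate 1 and 60.8 in plate 2, and 56 of the 65 cells had at least 10 RPKM.

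**Figure D1:**
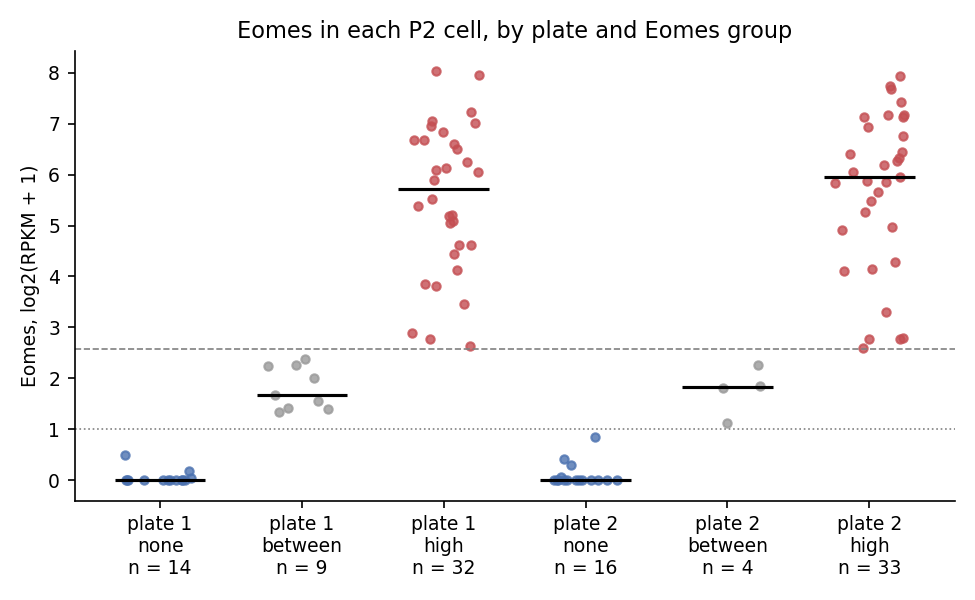
Eomes in each P2 cell as log2(RPKM + 1), by plate and Eomes group, with points for cells, black bars for medians and horizontal lines at the limits of 1 and 5 RPKM. The Eomes-high cells spread from 5.08 to 260 RPKM in similar ways in both plates, and 23 of the 30 Eomes-none cells lie at 0.

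Estimated from the smallest steps between values, a cell had a median of 5.95 M reads in the Eomes-high group and 5.40 M in the Eomes-none group. With 4155 bases of exon, 1 RPKM of Eomes was about 24.5 reads in the median cell and 5 RPKM about 122 reads. In 1 Eomes-none cell, with 0.193 M reads, a single Eomes read was worth 1.25 RPKM. Its value of 0 therefore hardly shows that Eomes was absent, but the cell still counts as Eomes-none. The exons of Eomes overlap those of Gm33460, and the libraries carry no strand, so reads of the pair cannot be told apart.

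A gene counted as detected in a cell from 1 RPKM. Per cell, 1434 to 3339 genes were detected in the Eomes-high group (median 2101), and up to 2794 in the Eomes-none group (median 1960.5), where the lowest number was 5.53% of the P2 median. Reads in genes had medians of 2.92 M and 2.54 M, and mitochondrially encoded genes took medians of 7.67% and 8.07% of the RPKM total. The number was below 50% of the P2 median in 2 Eomes-none cells, of which the better one had 556 detected genes, and in 0 Eomes-high cells. Both of these cells are in plate 2 and were at 0 for Neurod6, Pax6, Ccnd2 and Spry2, which raises the plate 2 differences of these genes. No pair of P2 cells had identical values. No label gives an animal or litter, so P2 is 1 sample, cells are not replicates, and no p-value or standard error is given. Differences below are means of log2(RPKM + 1) in Eomes-high cells minus Eomes-none cells, with the values in plate 1 and plate 2 in brackets in that order. The plates are parts of this 1 sample and not replicates known to be separate. Intervals on shares of cells are exact (Clopper-Pearson) 95% intervals and cover counting error only. In a library made from 1 cell, a gene listed at 0 may have been missed. Apart from such misses in single cells, 5 of 13 mitochondrially encoded genes, which every cell uses, were listed at 0 in all P2 cells. A gene at 0 throughout is therefore not shown to be absent, and the cause of these zeros was not tested.

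Beyond Eomes, a small set of genes, led by Itm2b, Sf3b6, Mrpl4, Dstn and Zbtb38, was higher in Eomes-high cells in the pooled values and in both plates. Lower genes, among them Mir5128 and Pts, were rarer in this count. In cells matched on detected genes, however, 64 genes were lower and 47 higher. How many genes would pass in both plates without any link to Eomes was not tested. The progenitor and cell cycle genes Btg2, Sstr2, Ccnd2, Cdk4 and Pax6 were at least 1 over all cells but not in each plate, and the marker Sema3c did not reach -1 over all cells. Of 6958 measured genes (those detected in 10% or more of the cells in one or the other group), 47 were higher by at least 1 in all cells and in both plates (0.675%). Another 5 were lower by at least 1 in the same way (0.0719%). Without the demand on plates, 177 genes were higher (2.54%) and 36 lower (0.517%) by at least 1. A gene can be measured through a single group, which can tilt counts and list medians toward the group where it is high.

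The plates were unlike each other for most large differences. In plate 1, 401 genes were higher and 201 lower by at least 1, and in plate 2 the numbers were 455 and 146. For 37 genes the plates were past 1 in opposite directions. The median difference over all measured genes was 0.13 (0.11, 0.16), so a gene of typical behaviour was slightly higher in Eomes-high cells, in which more genes were detected. With this median taken off, 31 genes were higher and 13 lower. Higher genes were 90.4% of the 52 in the first count and 70.5% after centring, 74.1% without the cells with few detected genes, and 42.3% in 26 pairs of cells matched on detected genes within a plate. In the matched cells 47 genes were again higher by at least 1, but only 13 of them were among the first 47, and 64 were lower.

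**Figure D2:**
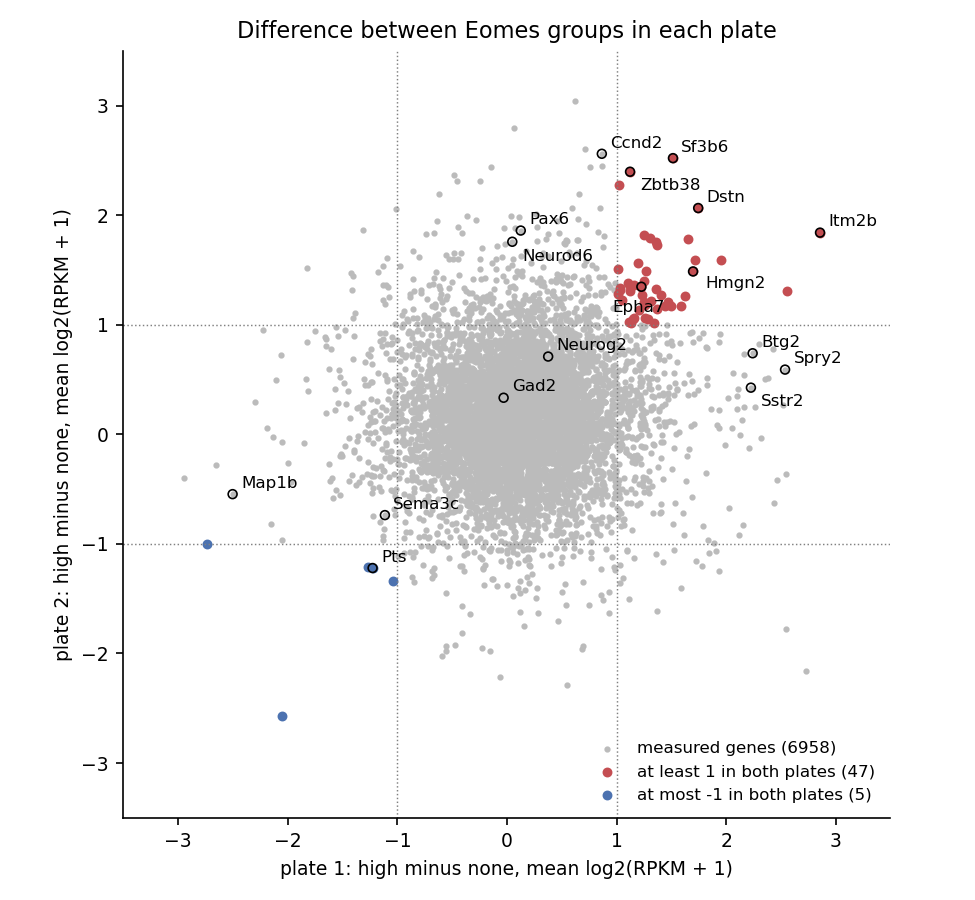
Difference of each measured gene between Eomes-high and Eomes-none cells, in mean log2(RPKM + 1), in plate 1 (horizontal) and plate 2 (vertical). The 47 genes past 1 in both plates lie in the upper right corner and the 5 past -1 in the lower left, while Btg2, Sstr2 and Spry2 are far from 0 mainly in plate 1 and Pax6, Neurod6 and Ccnd2 mainly in plate 2.

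Itm2b, which encodes a transmembrane protein processed at its end by furin, had the largest difference of the genes named by rule. In Eomes-high cells it ranged from 0 to 893 RPKM with a median of 83.1, and in Eomes-none cells from 0 to 290 with a median of 3.40. The ranges overlapped, and what differed was the share of cells with the transcript, 84.6% (73.5% to 92.4%) against 60.0% (40.6% to 77.3%), and the level in the middle cell. The difference was 2.33 (2.86, 1.84). The 13 cells with intermediate Eomes did not lie between the groups, with Itm2b detected in 46.2% and a mean log2(RPKM + 1) of 2.77, where Eomes-none cells had 2.88. The gene occupies chr14:73362226-73385289 (GRCm38, minus strand).

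Sf3b6 and Phf5a both encode subunits of SF3b, the part of the splicing machinery that holds the branch point. Sf3b6 had a median of 29.5 RPKM in Eomes-high cells (0 to 654) and 4.75 in Eomes-none cells (0 to 144), with a difference of 2.04 (1.52, 2.52). Phf5a was detected in 36.9% and 10.0% of cells, with a difference of 1.54 (1.31, 1.79). For both genes the 2 groups overlapped from 0 upwards.

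Mrpl4 and Mrpl28 encode proteins of the large subunit of the mitochondrial ribosome. Mrpl4 was detected in 24 of 65 Eomes-high cells, up to 324 RPKM, and in 1 of 30 Eomes-none cells, at 1.81 RPKM, so that its median was 0 in both groups. Its difference was 1.92 (2.56, 1.31), and that of Mrpl28 was 1.58 (1.36, 1.75). No cell of the 13 with Eomes from 1 to under 5 RPKM reached 1 RPKM of Mrpl4.

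Dstn encodes destrin, which takes actin filaments apart. It was detected in 66.2% of Eomes-high cells (median 7.10 RPKM, highest 592) and in 30.0% of Eomes-none cells (median 0, highest 316), and the difference was 1.92 (1.75, 2.07). Zbtb38, a zinc finger protein that binds methylated DNA, had medians of 72.3 and 6.20 RPKM, with the transcript in 83.1% and 50.0% of cells. The difference was 1.80, unequal between the plates (1.12, 2.40). Eomes-none cells fell into a set at or near 0 for Zbtb38 and a set as high as most Eomes-high cells, with a highest value of 217 RPKM against 415.

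The remaining genes of the 15 were Paip2 (1.77), an inhibitor of translation through the poly(A)-binding protein, Myeov2 (1.73), a small subunit of the COP9 signalosome, and Pkm (1.70), pyruvate kinase. They were followed by Atp6v1d (1.64), a subunit of the proton pump of lysosomes, Hmgn2 (1.60), a nucleosome-binding protein, Rpl14 (1.57), a ribosomal protein, Pcp4 (1.52), a regulator of calmodulin, and Tagap1 (1.44). Hmgn2 was detected in 92.3% of Eomes-high cells and 63.3% of Eomes-none cells. Rpl14 was detected in 86.2% and 83.3% of cells, so for this gene the level and not the share of cells differed, with medians of 93.7 and 27.1 RPKM.

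These 15 differences depended on the scale. When the logarithm was taken of the mean RPKM instead of in each cell, 7 shrank by over 1.5 times (Itm2b, Zbtb38, Paip2, Atp6v1d, Hmgn2, Rpl14 and Pcp4), since that scale follows the cells with the highest values, and 3 grew by as much. Only 6 of the 15 were still past 1 in all cells and both plates on that scale, and only 6 in the matched cells. Rpl14 was at 0.55 in the matched cells and Pcp4 at 0.76 without cells with Gad2 of at least 5 RPKM. In plate 1 alone Zbtb38 and Pkm were over 1.5 times smaller. Exons of Pkm, Pcp4 and Tagap1 overlap another annotated gene, and Rpl14 and Hmgn2 have processed copies elsewhere in the genome, which makes their counts uncertain.

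**Figure D3:**
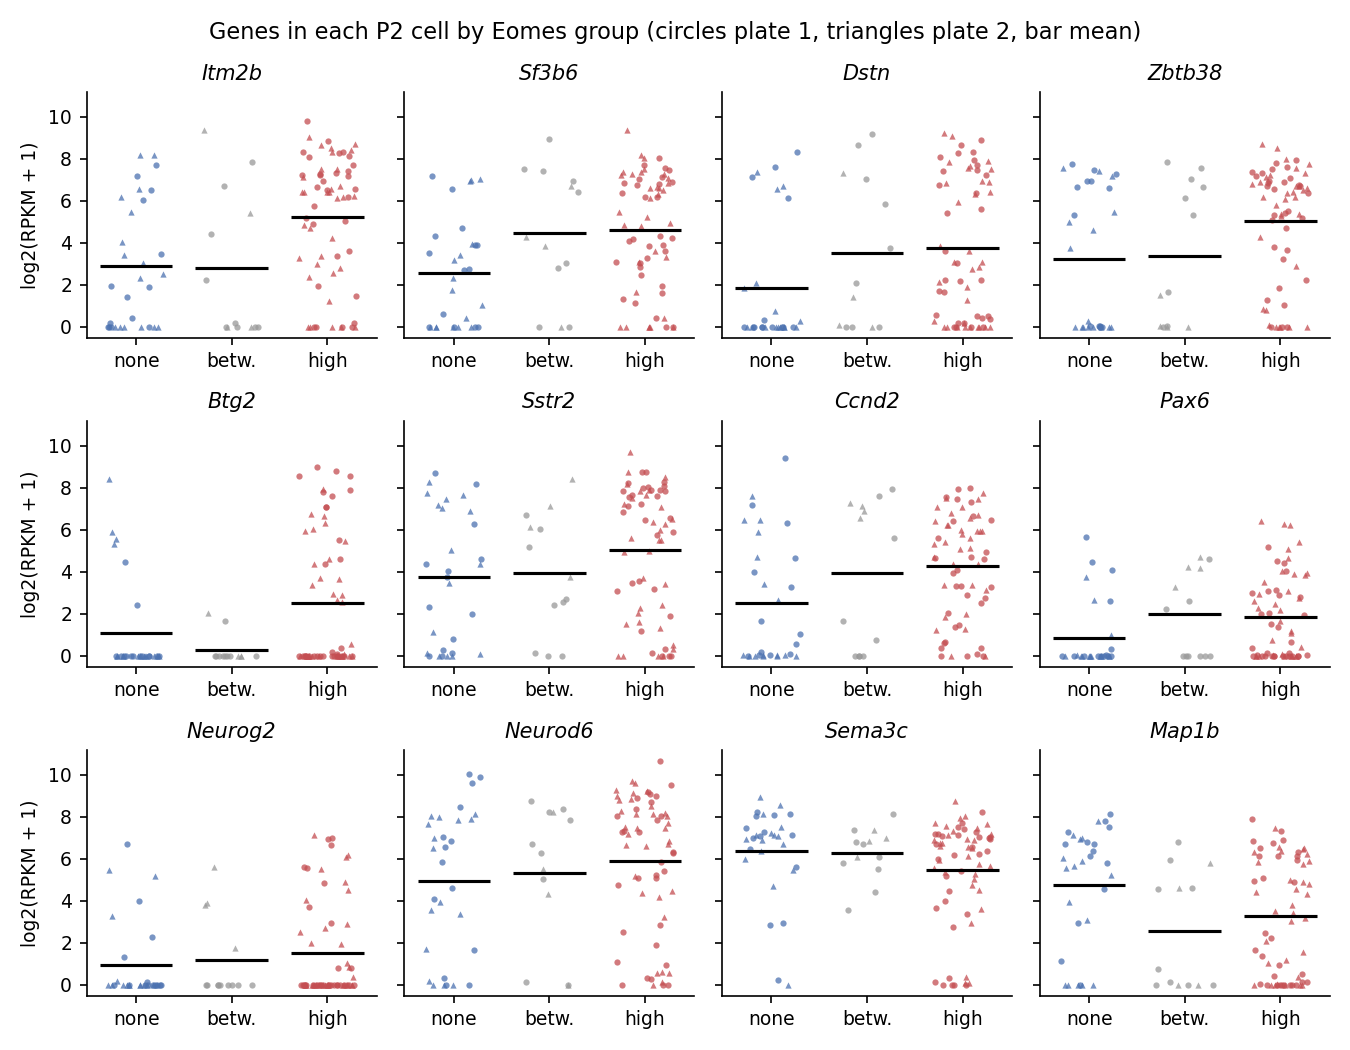
Levels of 12 genes in each P2 cell as log2(RPKM + 1), by Eomes group, with circles for plate 1, triangles for plate 2 and bars for means. In every panel the groups overlap, and the Eomes-high bar is above the Eomes-none bar except for Sema3c and Map1b.

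All 5 genes that were lower by at least 1 in both plates are given here, 3 of them outside the naming rule and chosen after their values were seen. They were Gm42439 (-2.34), Mir5128 (-1.85), Gm37706 (-1.25), Pts (-1.22) and Gm42974 (-1.21). Pts encodes an enzyme of tetrahydrobiopterin synthesis and was detected in 13.8% of Eomes-high cells and 36.7% of Eomes-none cells, at medians of 0 in both and highest values of 410 and 443 RPKM. Its difference was -0.33 without cells with Gad2 of at least 5 RPKM. Mir5128, the host of the miRNA printed above, was detected in 9 of 65 Eomes-high cells and 10 of 30 Eomes-none cells, with highest values of 570 and 893 RPKM. Its plates differed (-2.74, -1.005). The annotated hairpin gene is 84 bases long, on chromosome 2 from 37688201 to 37688284, so few reads give a large RPKM, and 75 bp reads of a poly(A)-primed library do not measure the mature miRNA.

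The markers that come with Eomes in this lineage separated the 2 groups only in part. Neurog2, the gene whose regulatory sequences drove the reporter, was detected in 21 of 65 Eomes-high cells (32.3%, 21.2% to 45.1%) and 7 of 30 Eomes-none cells (23.3%, 9.93% to 42.3%). It reached 138 and 101.98 RPKM, with a median of 0 in both groups. The intervals overlapped, and the shares went opposite ways in the plates, with 25.0% and 28.6% in plate 1 and 39.4% and 18.8% in plate 2. The difference was 0.55 (0.38, 0.71), and 0.12 in the matched cells. Neurod6, a factor of young glutamatergic neurons, was detected in 83.1% and 76.7% of cells, with medians of 145 and 73.6 RPKM. Its difference of 0.93 was carried by plate 2 (0.05, 1.76), which holds the 2 Eomes-none cells with few detected genes, and was 0.35 in the matched cells.

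Sema3c, a secreted semaphorin that guides axons and migrating cells, went the other way in both plates. It had a median of 90.7 RPKM in Eomes-high cells (0 to 426) and 135 in Eomes-none cells (0 to 483) and was detected in 86.2% and 93.3% of them, with a difference of -0.93 (-1.11, -0.74). It was detected in all 13 cells with intermediate Eomes, at a median of 102.3 RPKM. Of the 4 markers named for these cells, Eomes was thus high by choice, Neurog2 and Neurod6 had differences above 0 in both plates, and Sema3c below 0. Neurog2, Neurod6 and Sema3c were detected together in 16.9% of Eomes-high and 20.0% of Eomes-none cells. The plates went opposite ways here too, with 3.13% and 21.4% in plate 1 and 30.3% and 18.8% in plate 2.

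Other genes of intermediate progenitors mostly had differences above 0. The list, which like all lists here was drawn up with earlier results of these data known, had 14 measured members of 24 without Eomes. Of these, 10 were above 0 in both plates and 1 was below, with a median of 0.54, where 39.1% of all measured genes were above 0 in both plates and 17% below, with a median of 0.13. None of the 14 was past 1 in both plates. Summed over the list, the level had a median of 330 RPKM (25.3 to 1311) in Eomes-high cells and 217 (16.2 to 1817) in Eomes-none cells, and the ranges overlapped nearly throughout.

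Btg2, an antiproliferative gene switched on before neurogenic divisions, was detected in 28 of 65 Eomes-high cells (43.1%, 30.8% to 56.0%) and in 6 of 30 Eomes-none cells (20.0%, 7.71% to 38.6%), with highest values of 510 and 337 RPKM. Its difference was 1.45 (2.24, 0.74), and 1.62 in the matched cells, but 0.75 without cells with Gad2 of at least 5 RPKM. Only 2 of the 13 cells with intermediate Eomes had Btg2. Sstr2, a somatostatin receptor, had medians of 62.7 and 13.8 RPKM and a difference of 1.29 (2.23, 0.43), but 0.05 in the matched cells.

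Hes6, an inhibitor of Hes1, was at 0.89 (0.41, 1.29), and Afap1, an actin-binding protein, at 0.84 (1.45, 0.28). Insm1, a zinc finger factor of basal progenitors, was at 0.48 (0.70, 0.28). Coro1c was the member below 0 in both plates (-0.27). The median of this list was 0.32 in the matched cells, where Afap1 was at -0.04.

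Genes of the proneural cascade had 6 of 8 measured members above 0 in both plates and 1 below, with a median of 0.51. Neurog2, Insm1 and Hes6 are in this list and in that of intermediate progenitors, so the lists are not independent. Scrt2, a repressor linked to the departure of neuronal precursors from the ventricular surface, led it at 0.93 (1.24, 0.66). Myt1 was at 0.58 (0.55, 0.62) and Neurod1 at 0.35 (0.75, -0.02), while Sox11, a factor of young neurons, was at -0.44 (-0.45, -0.44). The median of the proneural list fell to 0.20 in the matched cells, where Scrt2 was at 0.35 and Myt1 at 0.77. In the Notch pathway 5 of 10 measured members were above 0 in both plates and 1 was below, with a median of 0.18. The ligand gene Jag1 was at 0.49 (0.22, 0.74), but -0.08 in the matched cells, and the DNA-binding effector Rbpj at 0.42 (0.34, 0.49). Of the ligand Dll1, which signals from newborn neurons and progenitors to their neighbours, 3.08% of Eomes-high cells had a detected level and 0 of the 30 Eomes-none cells.

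Of the genes of radial glia, Pax6, Sox2, Sox9 and Fabp7 had differences above 0 in both plates, and the other measured members did not. Pax6 was detected in 35 of 65 Eomes-high cells (53.8%, 41.0% to 66.3%) and 6 of 30 Eomes-none cells (20.0%, 7.71% to 38.6%), with highest values of 83.5 and 48.9 RPKM. The 2 intervals did not overlap, but they cover counting error only and pool plates that were unlike. The gap was wide in plate 2, at 63.6% against 12.5% of cells, and narrower in plate 1, at 43.8% against 28.6%. The difference was 1.03 (0.13, 1.86), and its value in plate 1 was near the median of all measured genes there (0.11). The 13 cells with intermediate Eomes were like the Eomes-high cells, with Pax6 detected in 7.

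Sox2, a factor of neural stem cells, was detected in 26.2% (16.0% to 38.5%) and 6.67% (0.818% to 22.1%) of cells, with a difference of 0.73 (0.57, 0.90). Sox9 was detected in 26.2% and 3.33%, with a difference of 0.75 (1.23, 0.29), and Fabp7, a fatty acid-binding protein of radial glia, in 47.7% and 36.7%, with 0.59 (0.32, 0.86). The other 3 measured members had plates of opposite sign. Ptprz1 was at 0.27 (-0.27, 0.77) with 32.3% and 33.3% of cells. Slc1a3 was at 0.04 (0.43, -0.32) with 15.4% and 13.3%, and Dbi at 0.08 (0.33, -0.13) with 35.4% and 26.7%. Of 7 measured members 4 were above 0 in both plates and 0 below, with a median of 0.59, which was 0.66 in the matched cells. Sox2 and Sox9 reached the limit for measured genes only in Eomes-high cells, which tilts this count and median upward. Another 13 listed members, among them Hes1, Hes5, Vim and Nes, were below the limit for measured genes in P2 cells, so this list covers radial glia only in part. Among these, Hes5, Nes, Id4 and Ddah1 were detected in a smaller share of Eomes-high than of Eomes-none cells, none above 6.67%. Vim, Gli3, Tnc and Pdpn were detected in a larger share, none above 7.69%. Shares and differences of means did not always go together, with Vim at -0.10 (-0.17, -0.06) and Hes5 at 0.03 (0.06, 0). Pax6 and Neurod6 were detected together in 41.5% (29.4% to 54.4%) of Eomes-high cells and 16.7% (5.64% to 34.7%) of Eomes-none cells.

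Ccnd2 and Cdk4, which drive entry into the cell cycle, had differences above 0 in both plates. Ccnd2, the D-type cyclin of cortical basal progenitors, was detected in 84.6% (73.5% to 92.4%) of Eomes-high and 50.0% (31.3% to 68.7%) of Eomes-none cells, with medians of 24.9 and 0.736 RPKM. The highest single value, 671 RPKM, was in an Eomes-none cell, against 250 RPKM in the Eomes-high cells. Its difference was 1.74 (0.87, 2.56) and only 0.19 on the scale of the log of the mean. Cdk4, the kinase partner of D-type cyclins, had medians of 75.2 and 18.2 RPKM and a difference of 1.68 (0.87, 2.45). Exons of Ccnd2 and Cdk4 overlap other genes. Cdk6 was at 0.73 (0.44, 0.99). The list of cell cycle entry and exit had 6 of 15 members above 0 in both plates and 0 below, with a median of 0.25, a share near the 39.1% of all measured genes.

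Genes of G2 and mitosis had 26 of 34 measured members above 0 in both plates and 1 below, with a median of 0.41. Hmgb2, a chromatin protein abundant in dividing cells, was at 1.18 (0.88, 1.43), detected in 50.8% and 26.7% of cells. Top2a, the topoisomerase of mitotic chromosomes, was at 0.82 (1.07, 0.58) and Aurkb, the kinase of the chromosomal passenger complex, also at 0.82 (0.82, 0.81). Aurkb was detected in 15.4% of Eomes-high cells and in 0 of 30 Eomes-none cells, which allows a share of up to 11.6% by the exact interval. It was thus measured through the Eomes-high cells alone. Mki67, a common marker of proliferation, hardly differed, at 0.09 (0.15, 0.02), and was detected in 12.3% and 10.0% of cells. Genes of S phase had 9 of 18 above 0 in both plates and 3 below, with a median of 0.24, led by the ribonucleotide reductase gene Rrm1 at 1.28 (1.67, 0.93). The S phase median was -0.06 in the matched cells.

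Cells with many G2/M genes were a minority in both groups. At least 12 of the 45 listed G2/M genes were detected in 13 of 65 Eomes-high cells (20%, 11.1% to 31.8%) and 2 of 30 Eomes-none cells (6.67%, 0.818% to 22.1%), with overlapping intervals. The shares were 15.6% and 7.14% in plate 1 and 24.2% and 6.25% in plate 2. Of the Eomes-high cells 2 lay within 2 genes of this limit, which marks a range and not a cell type. The medians were 3 and 2 G2/M genes, and the highest numbers were 42 and 36. Without the cells with many G2/M genes, the median of the list was 0.15, Hmgb2 was at 0.71 and Aurkb at 0.08. Pax6 was then at 0.77, Ccnd2 at 1.59 and Cdk4 at 1.56.

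Within the Eomes-high group, the 13 cells with many G2/M genes all had Pax6, Ccnd2 and Spry2 detected. Among the other 52 cells these genes were detected in 22, 42 and 40. Neurog2 was detected in 8 of the 13 and in 13 of the 52 cells. Sox2 was found in 7 and 10 cells and Insm1 in 10 and 20. Neurod6 was as common in the first as in the second, with 84.6% and 82.7% of cells. Eomes itself had medians of 58.1 RPKM in the 13 cells and 59.1 in the 52, so the cells with many G2/M genes were not those with the most Eomes. The 13 cells also had more detected genes, with a median of 2528 against 2056, and its part in these shares was not tested. Gad2 was detected in 23.1% and 44.2% of the 2 sets.

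**Figure D4:**
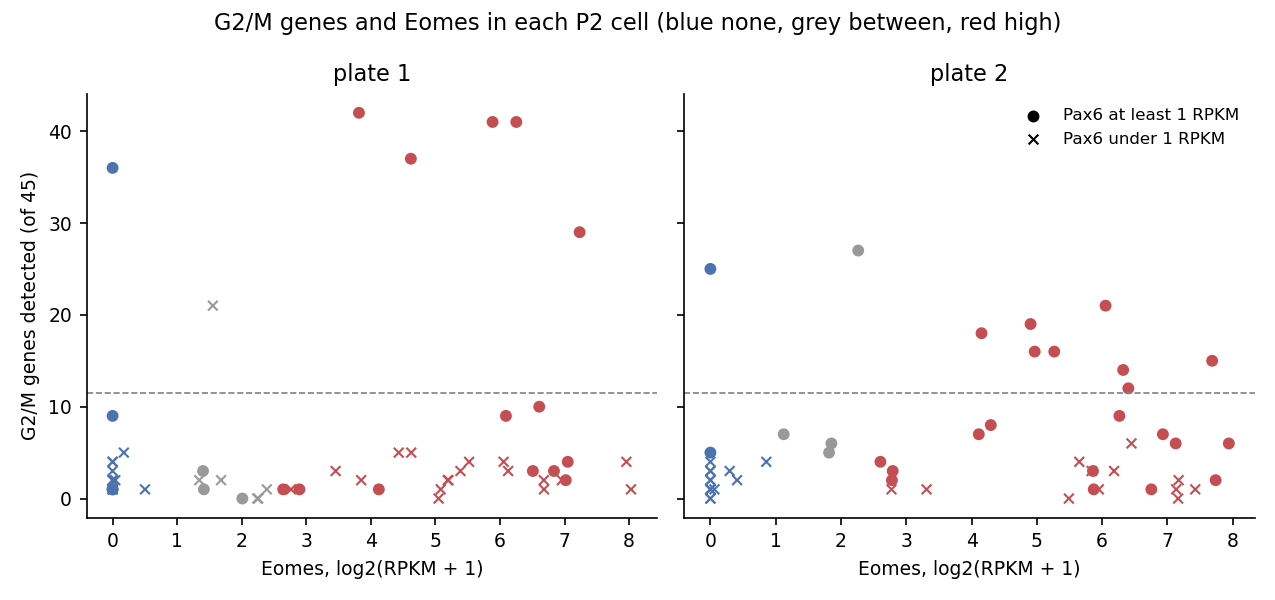
Number of the 45 listed G2/M genes detected in each P2 cell against its Eomes level as log2(RPKM + 1), by plate, with filled circles for cells with Pax6 of at least 1 RPKM and crosses for cells below it. Above the dashed limit of 12 genes lie 13 Eomes-high cells (red), which all have Pax6, 2 Eomes-none cells (blue) and 2 cells between (grey).

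Genes of glutamatergic neurons were near the background, with 6 of 13 measured members above 0 in both plates and 2 below and a median of 0.12 (-0.06 in the matched cells and -0.02 after centring). Bcl11a, a zinc finger factor of cortical neurons, was at 1.02 (0.38, 1.62), detected in 63.1% and 50.0% of cells. Slc17a6, a vesicular glutamate transporter, was at 0.85 (1.30, 0.50). Neurod2 was at -0.71 (-0.39, -0.99), detected in 36.9% and 50.0% of cells, and was at -1.26 in the matched cells. Tbr1, which follows Eomes in this lineage, was at -0.10 (-0.51, 0.28) and was detected in 52.3% and 53.3% of cells.

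Upper layer genes had 4 of 11 members above 0 in both plates and 3 below, with a median of 0.10 (-0.09, 0.28), or -0.03 after centring. Lhx2 was at 0.89 (1.53, 0.36) and Cux2, a homeobox factor of upper layer neurons and their progenitors, at -0.62 (-0.86, -0.38), detected in 84.6% and 93.3% of cells. Deep layer genes had 1 of 7 above 0 in both plates and 2 below, with a median of -0.10 (-0.46, 0.23). Bcl11b, a factor of subcerebral neurons, was detected in 6.15% and 16.7% of cells and was at -0.46 (-0.81, -0.14). Nfib, a nuclear factor present in nearly all P2 cells, was at 0.76 (0.24, 1.21).

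Pan-neuronal genes had 5 of 19 above 0 in both plates and 2 below, with a median of 0.11 (-0.15, 0.19). Map1b, a microtubule-associated protein of growing axons, had the largest lower level of any listed gene. It had medians of 9.53 RPKM in Eomes-high cells (0 to 237) and 56.8 in Eomes-none cells (0 to 276) and was detected in 66.2% and 80.0% of them. The difference was -1.47, mostly from plate 1 (-2.50, -0.55), and -2.07 in the matched cells. Tubb3, neuronal tubulin, went the other way at 0.81 (0.58, 1.02), but was at -0.03 in the matched cells. Dcx, the microtubule protein of migrating neurons, was detected in 96.9% and 90.0% and was at 0.14 (0.37, -0.06), so nearly all cells of both groups carried a transcript of young neurons.

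Among 27 measured genes of migration and guidance, 11 were above 0 in both plates and 5 below, with a median of 0.06 (-0.12 in the matched cells and -0.07 after centring). Epha7, an ephrin receptor, was the only member of any list past 1 in both plates. It was detected in 32 of 65 Eomes-high cells (49.2%, 36.6% to 61.9%) and 5 of 30 Eomes-none cells (16.7%, 5.64% to 34.7%), with highest values of 74.6 and 80.6 RPKM. Its difference was 1.29 (1.23, 1.35) and 1.25 in the matched cells. Efnb2, an ephrin ligand, was at 0.88 (0.49, 1.23) and the cadherin gene Cdh4 at 0.98 (0.63, 1.29).

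**Figure D5:**
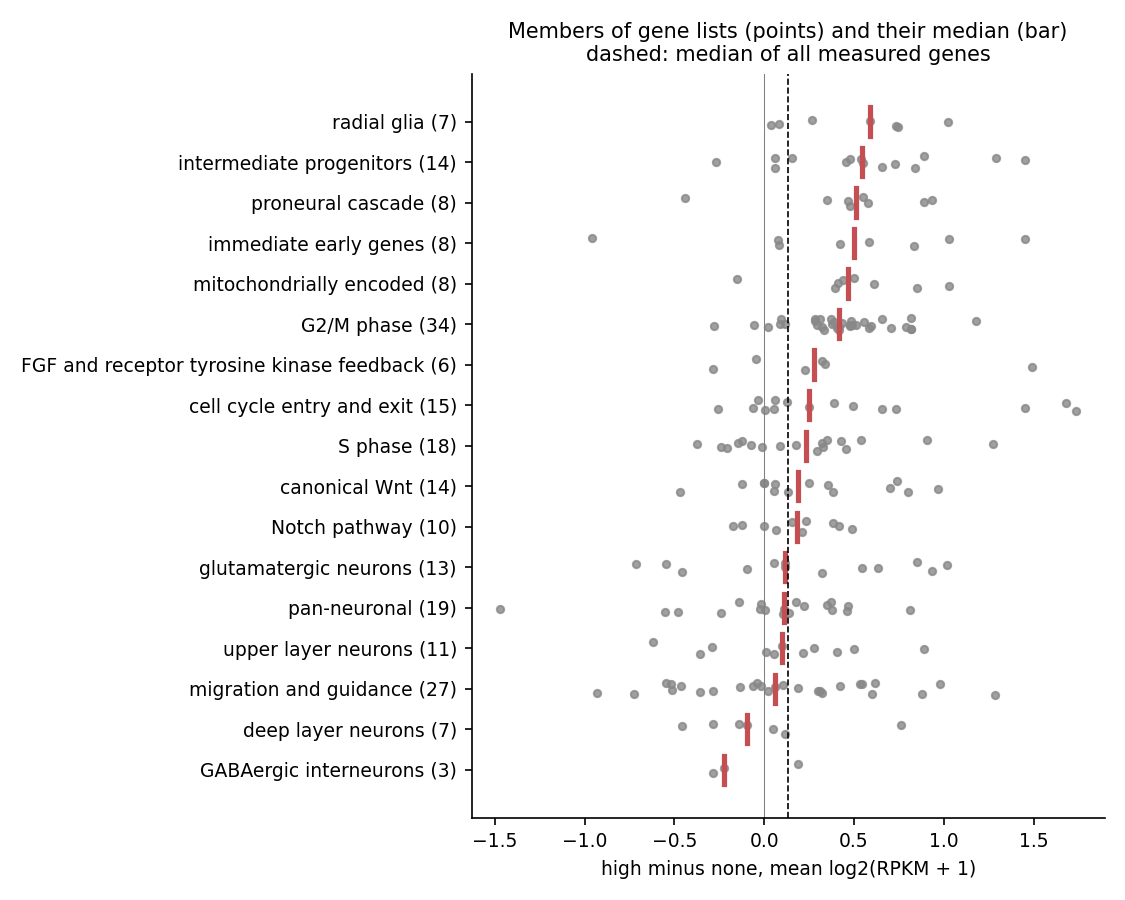
Differences between Eomes-high and Eomes-none cells in mean log2(RPKM + 1) for the measured members of each gene list (points), with list medians (red bars), the number measured in brackets and the median of all measured genes dashed at 0.13. Lists of radial glia, intermediate progenitors and the proneural cascade have medians from 0.51 to 0.59, immediate early genes 0.50, mitochondrially encoded genes 0.47 and G2/M genes 0.41. Some lists share members, so their medians are not independent. Glutamatergic, upper layer and pan-neuronal lists lie near the dashed line, and deep layer genes are at -0.10. The medians of the upper layer, deep layer and pan-neuronal lists had opposite signs in the plates.

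In signalling pathways Spry2, a feedback inhibitor of receptor tyrosine kinases, was at 1.49, mostly from plate 1 (2.54, 0.59). Its medians were 56.7 RPKM in Eomes-high and 8.41 in Eomes-none cells, with highest values of 361 and 478. Of the 5 other measured genes of this list, Dusp6 was above 0 in both plates (0.39, 0.26), Spred1 was below (-0.05, -0.03), and Dusp4, Etv1 and Fgfr1 had plates of opposite sign. In canonical Wnt signalling 6 of 14 members were above 0 in both plates and 0 below, with a median of 0.19 (-0.10 in the matched cells). Ctnnb1, which encodes beta-catenin, was at 0.97 (0.83, 1.08), and its exons overlap Ulk4 and Mir7090. Apc, of the complex that degrades beta-catenin, was at 0.74 (0.82, 0.67), but -0.24 in the matched cells.

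Immediate early genes, which respond to stimulation and to tissue dissociation, had 5 of 8 above 0 in both plates and 1 below, with a median of 0.50. Btg2 is in this list and in those of intermediate progenitors and of cell cycle entry and exit. Fos was detected in 36.9% and 23.3% of cells and was at 1.03 (0.68, 1.40), but at -0.13 in the matched cells. Egr1 was at 0.84 (0.78, 0.90) and Ier2 at -0.96 (-1.22, -0.74). Mitochondrially encoded genes had a median of 0.47, with 3 of 8 above 0 in both plates and 0 below. mt-Nd5 was at 2.03 in plate 1 and -0.67 in plate 2. The part of dissociation, RNA quality or the number of detected genes in these values was not tested.

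Most listed markers of other cell types were rare in both groups, with Gad2 the most common and Sparcl1 and Cxcl12 also found in over 10% of the cells of each group. Gad2, an enzyme of GABA synthesis, was detected in 26 of 65 Eomes-high cells (40.0%, 28.0% to 52.9%) and 11 of 30 Eomes-none cells (36.7%, 19.9% to 56.1%), at up to 126 and 137 RPKM, with a difference of 0.19 (-0.03, 0.33). Gad1 and the vesicular GABA transporter gene Slc32a1 did not reach 1 RPKM in any P2 cell. Dlx1 and Dlx5 were each detected in 1 Eomes-high and 1 Eomes-none cell. Only 3 of 20 listed interneuron genes were measured, and the summed level of the list ran from 0 to 145 RPKM in Eomes-high cells and from 0 to 183 in Eomes-none cells. Gad2 and Neurod6 were detected together in 30.8% and 23.3% of cells.

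Of 13 listed microglial genes 12, of 13 endothelial and mural genes 13 and of 9 ependymal and choroid plexus genes 9 stayed under 1 RPKM in every P2 cell. In the oligodendrocyte list 0 of 13 genes were measured, and Sox10 and Olig1 stayed under 1 RPKM throughout. In the astrocyte list Sparcl1 was detected in 21.5% of Eomes-high and 13.3% of Eomes-none cells (0.57 with 0.61 and 0.50 in the plates), while Gfap and Aldh1l1 did not reach 1 RPKM. Of the Cajal-Retzius list, Cxcl12 alone was measured, in 12.3% and 13.3% of cells.

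The amount of Eomes within the Eomes-high group was set beside other genes in 29 cells from 5 to under 50 RPKM and 36 cells with 50 RPKM or more, a limit chosen after the values were seen. Sstr2 was detected in 72.4% of the cells with less Eomes and 91.7% of those with more, at medians of 30.4 and 78.3 RPKM. The plates went opposite ways, with mean log2(RPKM + 1) of 5.70 and 5.23 in plate 1 and 2.92 and 5.65 in plate 2. Tbr1 was detected in 62.1% and 44.4% and Insm1 in 55.2% and 38.9%. Pou3f2, a POU-domain factor found in all Eomes-high cells, had medians of 116.2 and 264 RPKM. Its mean log2(RPKM + 1) was 7.26 and 7.46 in plate 1 and 7.41 and 8.40 in plate 2. Neurog2, Neurod6 and Sema3c had shares of 37.9% and 27.8%, 86.2% and 80.6%, and 89.7% and 83.3%. None of these 3 markers was therefore more often detected in the cells with more Eomes, though the plates were not alike, as for Neurod6 with mean log2(RPKM + 1) of 6.30 and 4.50 in plate 1 and 5.91 and 6.67 in plate 2.

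The same limits of Eomes gave 63 Eomes-high and 44 Eomes-none cells at E15. Over the genes measured at P2 the median E15 difference was 0.17, and 3.84% were at least 1. With this median, most measured genes were above 0 at E15, and their exact share was not computed. Of the 15 genes led by Itm2b, 13 were above 0 and 6 were at least 1 at E15, with Sf3b6 at 1.24, Dstn at 1.05 and Hmgn2 at 1.43. Itm2b itself was at 0.28 at E15, where it was detected in 95.2% and 88.6% of cells, and Pcp4 was at -0.61. Among progenitor genes, the E15 difference was 2.09 for Btg2, 0.92 for Neurog2, 0.64 for Pax6 and 1.08 for Epha7. Most listed genes of intermediate progenitors and the proneural cascade were above 0 there, like most measured genes, as Mfng at 1.32, Hes6 at 0.88 and Sstr2 at 0.86. Some were not, as Insm1 at -0.57 and Scrt2 at -0.02. The Notch ligand gene Jag1 was at -0.32. Top2a was at 1.86 at E15, where it was detected in 41.3% and 9.09% of cells, and Mki67 at 1.08. Sema3c was at -0.26 and Map1b at -0.04. Gad2 was not detected in either E15 group. The ages are separate tables with 1 sample each, and the difference between them was not tested.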

How the data were processed

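Single-cell libraries of 75 bp single reads, with a stated depth of 7 M reads, were measured in 121 E15 and 109 P2 cells. Per the submitters' processing notes, the authors used bcl2fastq 2.15.0.4, cutadapt 1.9.1, STAR and featureCounts on GRCm38.p4. The deposited values are RPKM per gene and cell, in 1 table per age. Which annotation and counting options were used, and which total the RPKM divide by, is not given in the sources used here. Read totals were estimated from exon unions of GENCODE M21, and a median of 79.2% of the low values (up to 20 reads) in Eomes-high cells lay within 0.02 of a whole read. Of 46983 gene names 45745 had an exon length. Libraries carry no strand, and 21 of 94 named genes share exonic bases with another gene.

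Groups followed the limits of 5 and 1 RPKM, and plates the word plaque in the cell titles, which is an inference. The members, the 23 gene lists and the rule for named genes were chosen with earlier results of these data known. The difference is that of mean log2(RPKM + 1), with a pseudocount of 1 that shrinks the change of low genes. Named genes were the 15 largest in each direction (2 lower ones qualified) among measured genes past 1 in both plates and found in 25% or more of the cells of one group. Predicted and clone-named models, Y-linked genes, Xist and Tsix stayed out. Up to 4 measured members per list with the largest absolute difference and 26 genes fixed by name were added, and other genes named from the lists were chosen after their values were seen. Alternatives changed the scale, filter, Eomes limits, cells and plates, and centring was added after the data were seen. Promoters and the miRNA are from RefSeq (GRCm38.p6). The calculation of differences was tested on real P2 cells drawn at random into groups, with known changes put into some genes. That test covers the arithmetic and not whether the differences exceed noise. The tools were Python 3.11.15, scipy 1.17.1, pandas 2.3.3, numpy 2.4.6 and, for figures, matplotlib 3.10.9.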

Additional observations from a re-analysis of the deposited data

How the results depend on the processing

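Of the measured genes, 0.675% were higher and 0.0719% lower in Eomes-high cells by at least 1 in all cells and both plates. The numbers of genes behind these shares moved by over 1.5 times under the following alternatives, given as the share higher and then lower. They were 4.40% and 0.675% with a pseudocount of 0.1, 10.4% and 2.43% on the scale of the log of the mean, and 2.89% and 0.629% on the TPM scale. With Eomes-none cells at 0 RPKM only they were 1.11% and 0.198%, leaving out cells with many G2/M genes 1.13% and 0.153%, and leaving out cells with Gad2 of at least 5 RPKM 1.56% and 0.204%. Centring on the median of all genes gave 0.446% and 0.187%. Plate 2 alone gave 6.48% and 2.09% and plate 1 alone 6.27% and 3.15%, since the demand on a second plate falls away. Only the lower number moved with Eomes-high from 1 RPKM (0.115%), leaving out cells with few detected genes (0.202%), in matched cells (0.916%) and leaving out cells above 20% mitochondrially encoded RPKM (0.130%). For the other shifts the cause was not tested. Of the 47 higher genes, 13 were again past 1 in matched cells and 21 on the scale of the log of the mean. With limits of 15% and 35% of the G2/M list, 29.2% and 15.4% of Eomes-high cells were past them, against 10% and 6.67% of Eomes-none cells. No paired analysis was possible because the cells carry no replicate numbers that link the groups. Depth limits most the 2 Eomes-none cells with few detected genes.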
